A study of Mus musculus with 20 samples.

Results

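Fabp4, Fabp5, Rbp4, Apod, Acly, Acsl3 and Car3, genes of lipid carriage, lipid synthesis and the fat cell, were followed in the prostates of 5 inbred mouse strains. An array element, which is a spot of cDNA on the array, was taken as a member when the annotation of the array gave it only 1 gene symbol and that symbol was one of these 7. By this rule 9 of the 11552 elements were members, 3 of them for Rbp4 and 1 for each of the other genes. All 9 had a value on each of the 20 arrays and all 9 were tested, among 11159 tested elements in all.

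Fatty acids, retinol and sterols dissolve poorly in water and travel bound to carrier proteins. Within the cell the small fatty acid binding proteins carry fatty acids to membranes, enzymes and nuclear receptors. Fabp4 is the form of the fat cell, and it is also made by capillary endothelium and macrophages. Fabp5 is the epidermal form, made by many epithelia. Rbp4 is the blood carrier of retinol and is secreted by liver and fat cells. Apod is a lipocalin found on lipoproteins and secreted by many tissues. Acly makes cytosolic acetyl-CoA from citrate for fatty acid and sterol synthesis, and Acsl3 couples fatty acids to coenzyme A and takes part in lipid droplet formation. Car3, a carbonic anhydrase, is abundant in fat cells and also in slow skeletal muscle. The prostate lies in a fat pad, so fat-cell transcripts can enter a dissected gland.

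Each sample held RNA from the prostates of 3 male mice, aged 8 to 9 weeks, of C57BL/6J, 129X1/SvJ, FVB/NJ, BALB/c or DBA/2, with the dorsal, lateral, ventral and anterior lobes combined. The labels name no transgene and no treatment. There were 4 pools per strain, which makes 12 mice per strain and 60 in all, and no mouse was measured on its own. Amplified RNA of each pool was hybridized to a cDNA array of prostate transcripts, together with a common reference mixed from the RNA of every sample in equal parts. In every strain 2 pools carried Cy3 and 2 carried Cy5. These were pools 1 and 4 in Cy3 for C57BL/6J, FVB/NJ, BALB/c and DBA/2, and pools 2 and 3 in Cy3 for 129X1/SvJ. The C57BL/6J, 129X1/SvJ and FVB/NJ mice came from one supplier and the BALB/c and DBA/2 mice from another, so for a difference between these 2 sets strain and supplier cannot be told apart, while strains within a set share a supplier. A value is the log2 ratio of a pool over the reference, so 0 is the reference level, 1 is a doubling, and levels of different genes cannot be set against each other.

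Between 10998 and 11251 elements had a value on each array. The arrays of 129X1/SvJ were the most scattered, with a median SD between its pools of 0.30 (log2), against 0.15 to 0.18 in the other strains. Pool 4 of 129X1/SvJ stood apart from the other pools of its strain for 4.53% of elements by Dixon's test, and the other 19 arrays for 0.728% to 2.54%. On a ratio scale the presence of prostate tissue cannot be read from a level, but Pbsn (probasin) and Tgm4, secretory proteins of the mouse prostate, had a value on every array. The mean of 8 seminal vesicle genes was highest in BALB/c, at 0.89 ± 0.28 (SD, n = 4), against -2.09 to -1.42 in the other strains. The F test called 4 of the 8, Svs2, Svs5, Pate4 and Spink8, each highest in BALB/c, whereas Svs1, Svs3b and Svs6 did not pass and had their highest mean in another strain.

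Of the 9 member elements, 5 were past the threshold (adjusted p at most 0.1) when the 5 strain means were compared by limma's moderated F test. They belong to Fabp4, Fabp5, Rbp4, Apod and Car3. Over all tested elements 11.3% passed. All 5 also passed without any single pool, at adjusted p of 0.037 or less. The difference between the highest and the lowest strain mean had a median of 0.75 (log2) over the 9 member elements and of 0.32 over all elements. The members were chosen with earlier results of these data known, so neither comparison tests them as a set. Car3 spanned 1.53 and Fabp5 1.505, whereas Acly spanned 0.12. The plot of the 5 elements by strain gives the value of every pool.

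**Figure D1:**
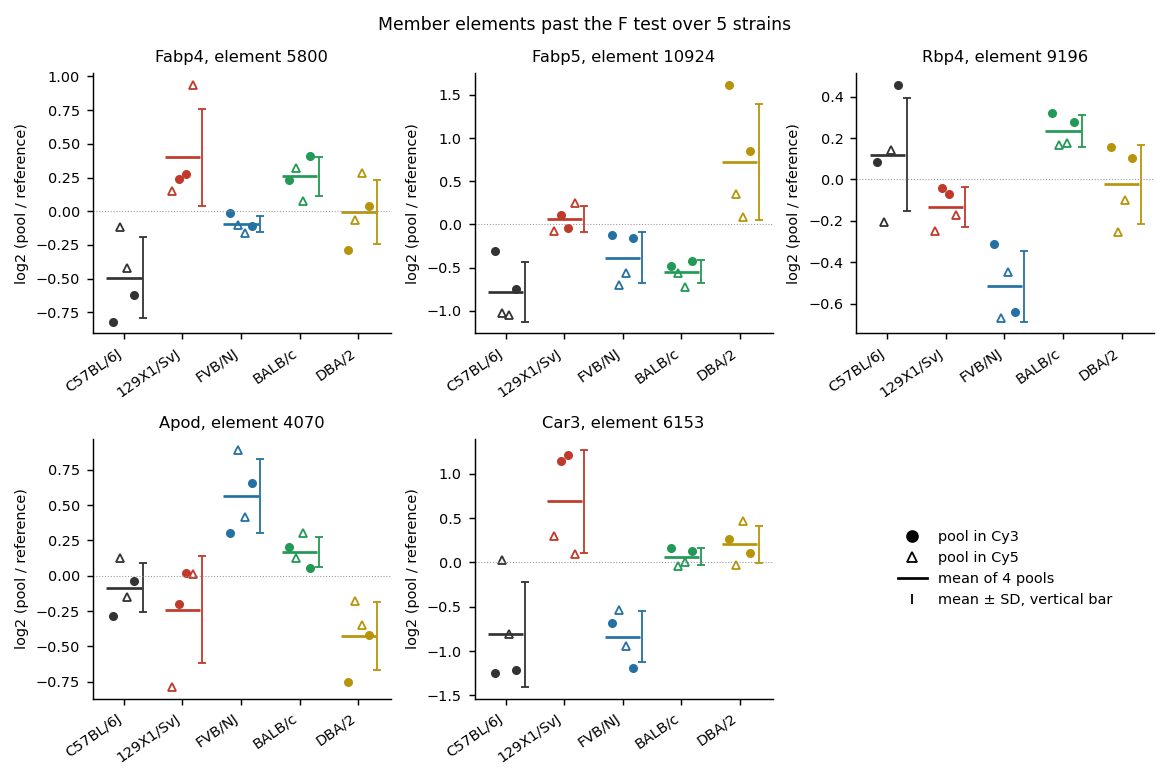
Log2 ratio of pool over reference (y axis) in each pool of the 5 strains (x axis) for the 5 member elements past the F test. Filled circles are pools in Cy3 and open triangles pools in Cy5, horizontal lines are means of 4 pools and vertical bars the SD around them. The FVB/NJ pools lie above the pools of the other strains for Apod and below them for Rbp4, and Car3 spans 1.53 from FVB/NJ to 129X1/SvJ.

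Fabp4, on chromosome 3, was lowest in C57BL/6J and highest in 129X1/SvJ. The C57BL/6J pools 1 to 4 read -0.82, -0.11, -0.42 and -0.62, a mean of -0.49 ± 0.30 (SD, n = 4). The 129X1/SvJ pools read 0.15, 0.24, 0.28 and 0.94, a mean of 0.40 ± 0.36. All 4 of these pools lay above every C57BL/6J pool, and the value of 0.94 in pool 4 stood away from the other pools of its strain. BALB/c followed with 0.23, 0.32, 0.07 and 0.41. DBA/2 (-0.29 to 0.28) and FVB/NJ (-0.16 to -0.01) lay around the reference level. The distance from C57BL/6J to 129X1/SvJ was 0.89, or 1.86-fold. The F test over all strains together gave an adjusted p of 0.0095. In the test of pairs, C57BL/6J and 129X1/SvJ were not called different, at an adjusted p of 0.11. Against the mean of the other 4 strains, C57BL/6J was lower by -0.63 ± 0.13 (SE; adjusted p = 0.0089) and 129X1/SvJ higher by 0.48 ± 0.13 (adjusted p = 0.038). The call in C57BL/6J was lost without its pool 1, at an adjusted p of 0.076. The call in 129X1/SvJ was lost without any 1 of 9 single pools, with adjusted p up to 0.14. These were pool 4 of C57BL/6J, pools 3 and 4 of 129X1/SvJ, pools 3 and 4 of FVB/NJ, pools 1 and 3 of BALB/c and pools 1 and 2 of DBA/2. The same call was lost with arrays scaled to the same spread, with quantile normalization, with array weights, without moderation and in either dye alone. Its SE rests on 1 spread shared by all strains, although the SD was 0.36 in 129X1/SvJ and 0.06 in FVB/NJ. Neighbours in the order of strain means were not separated in the tests of pairs, where adjusted p ran from 0.21 to 0.91.

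Fabp5, also on chromosome 3, had a different order of strains. It was highest in DBA/2, where the pools read 1.61, 0.35, 0.08 and 0.85, a mean of 0.72 ± 0.67 (SD, n = 4). It was lowest in C57BL/6J, at -0.31, -1.02, -1.05 and -0.74, a mean of -0.78 ± 0.35. BALB/c read -0.48, -0.56, -0.73 and -0.42. DBA/2 was thus the most scattered strain for this gene, with both Cy3 pools above both Cy5 pools, but all of its pools lay above all of those of C57BL/6J and BALB/c. FVB/NJ ran from -0.71 to -0.12 and 129X1/SvJ from -0.08 to 0.25. The span from C57BL/6J to DBA/2 was 1.505, or 2.84-fold (adjusted p = 0.0018 in the F test). DBA/2 exceeded the mean of the other strains by 1.14 ± 0.19 (SE; adjusted p = 0.0016), and this call held without any single pool. C57BL/6J was lower than the others by -0.74 ± 0.19 (adjusted p = 0.038). That call was lost, with adjusted p up to 0.19, without pool 2, 3 or 4 of C57BL/6J, 1 or 4 of FVB/NJ, 1, 2 or 4 of BALB/c, or 4 of DBA/2. The dye effect passed its threshold in 1 of the 9 member elements, against 15.9% of all elements. This was Fabp5, where pools in Cy5 read -0.43 ± 0.12 (SE) against pools in Cy3 (adjusted p = 0.021). Within either dye alone it still passed the F test, with adjusted p of 0.011 in Cy3 and 0.022 in Cy5. No pair of neighbours in the order of its strain means passed the test of pairs, at adjusted p of 0.46 or more. The mouse genome holds processed copies of Fabp5, and signal shared with them on a cDNA element cannot be separated here.

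Rbp4, on chromosome 19, was measured by 3 elements that differed from each other. Element 9196 read -0.31, -0.67, -0.45 and -0.64 in FVB/NJ, a mean of -0.52 ± 0.17 (SD, n = 4), and all the other 16 pools lay between -0.25 and 0.46. It was highest in BALB/c, at 0.32, 0.16, 0.18 and 0.28. The FVB/NJ pools thus stood below every other pool. The span was 0.75, or 1.68-fold (adjusted p = 0.0046 in the F test), and FVB/NJ stood at -0.57 ± 0.10 against the other strains (SE; adjusted p = 0.0027), which held without any single pool. Elements 4242 and 6310 did not pass, at adjusted p of 0.51 and 0.39. In FVB/NJ their means were -0.16 ± 0.26 and -0.04 ± 0.27, against -0.52 for element 9196. Over the 20 pools the elements correlated with each other at -0.28, 0.16 and -0.03. The last value is for elements 6310 and 9196, which the annotation matches to the same sequence. With the 3 elements averaged, Rbp4 passed the F test at an adjusted p of 0.077, but FVB/NJ against the other strains, at -0.22, was no longer called (adjusted p = 0.20). The lower Rbp4 level in FVB/NJ is therefore a result of 1 element of 3.

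Apod, on chromosome 16, was highest in FVB/NJ and lowest in DBA/2. The FVB/NJ pools read 0.30, 0.89, 0.42 and 0.66, a mean of 0.57 ± 0.26 (SD, n = 4), and the lowest of them, 0.303, lay just above the highest pool of the other strains, 0.300 in BALB/c. The DBA/2 pools read -0.75, -0.18, -0.35 and -0.42, a mean of -0.43 ± 0.24. BALB/c read 0.20, 0.13, 0.30 and 0.05. All BALB/c pools thus lay above the DBA/2 pools. C57BL/6J ran from -0.28 to 0.13 and 129X1/SvJ from -0.79 to 0.02. From DBA/2 to FVB/NJ the level differed by 0.99, or 1.99-fold (adjusted p = 0.0040 in the F test). FVB/NJ exceeded the mean of the other strains by 0.71 ± 0.13 (SE; adjusted p = 0.0041), without loss of the call when any single pool was left out. DBA/2 was lower than the others by -0.53 ± 0.13 (adjusted p = 0.0488), and this call was lost, with adjusted p up to 0.28, without any pool other than pool 1 of C57BL/6J, pools 1 and 4 of 129X1/SvJ and pool 1 of FVB/NJ.

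Where the pools of 1 strain are said to lie above those of another single strain, this is a description. How often that happens over all elements was not computed. Pools of 1 strain lay entirely above or entirely below the pools of all other strains in 3.82% of all elements. Among the members this held for 2 of 9, Apod (above) and element 9196 of Rbp4 (below), both in FVB/NJ. For this reason the 250 bases before the start of these 2 genes are shown, from RefSeq on GRCm38.p6, on the minus strand and written 5′ to 3′. Apod lies at chr16:31314809-31315058 and Rbp4 at chr19:38125322-38125571, and capitals mark a match to a searched motif.
Apod: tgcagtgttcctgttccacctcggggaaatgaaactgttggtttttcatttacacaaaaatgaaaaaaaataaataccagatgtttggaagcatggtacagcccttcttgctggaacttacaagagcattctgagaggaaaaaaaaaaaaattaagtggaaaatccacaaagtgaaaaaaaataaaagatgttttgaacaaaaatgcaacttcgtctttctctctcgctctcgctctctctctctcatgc
Rbp4: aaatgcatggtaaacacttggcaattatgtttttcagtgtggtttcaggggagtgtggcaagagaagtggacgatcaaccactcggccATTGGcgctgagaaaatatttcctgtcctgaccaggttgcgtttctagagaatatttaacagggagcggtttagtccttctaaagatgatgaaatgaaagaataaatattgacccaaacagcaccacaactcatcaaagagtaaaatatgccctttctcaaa
The motifs searched on both strands were the core promoter motif TATAAA and the promoter motif CCAAT. A half-site of the androgen receptor, TGTTCT, and a half-site of other nuclear receptors, AGGTCA, were searched as well. The only match in the 2 stretches was CCAAT in Rbp4, on the opposite strand and starting 162 bases before the gene start. Over 32851 promoters of the same length, TATAAA occurred in 12.4%, CCAAT in 33.8%, TGTTCT in 16.1% and AGGTCA in 14.0%. No common motif of this list was thus seen in the 2 stretches, and the array values say nothing on binding there.

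Car3, on chromosome 3, had the widest span of the members. It was highest in 129X1/SvJ, with 0.30, 1.15, 1.21 and 0.09, a mean of 0.69 ± 0.58 (SD, n = 4). FVB/NJ read -0.68, -0.53, -0.94 and -1.19, a mean of -0.84 ± 0.29, and C57BL/6J read -1.25, 0.03, -0.81 and -1.21, a mean of -0.81 ± 0.59. All 129X1/SvJ pools lay above all C57BL/6J and FVB/NJ pools, and pool 2 of C57BL/6J was the single pool of that strain near the reference level. BALB/c (-0.04 to 0.16) and DBA/2 (-0.03 to 0.47) varied little. The span from FVB/NJ to 129X1/SvJ was 1.53, or 2.88-fold (adjusted p = 0.0012 in the F test). Against the mean of the other strains 129X1/SvJ was higher by 1.03 ± 0.21 (SE; adjusted p = 0.0046), which held without any single pool. C57BL/6J was lower by -0.84 ± 0.21 (adjusted p = 0.028) and FVB/NJ by -0.87 ± 0.21 (adjusted p = 0.025). The first of these 2 calls was lost without pool 1, 3 or 4 of C57BL/6J (adjusted p up to 0.17), and the second without pool 1, 3 or 4 of FVB/NJ (adjusted p up to 0.15). In 129X1/SvJ both Cy3 pools (mean 1.18) exceeded both Cy5 pools (mean 0.19), and in C57BL/6J the Cy5 pools (mean -0.39) exceeded the Cy3 pools (mean -1.23).

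**Figure D2:**
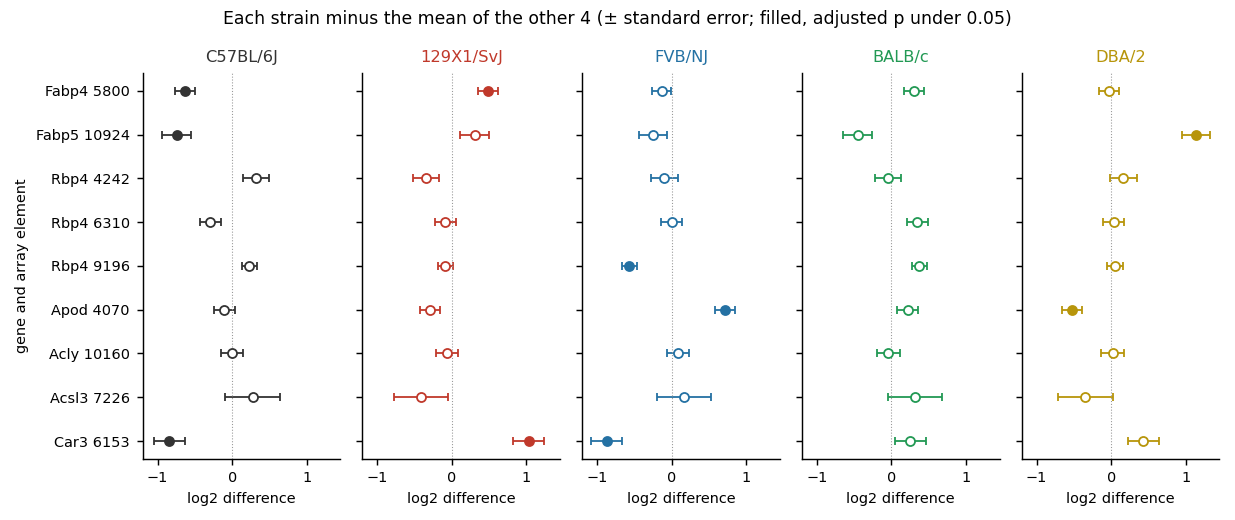
Log2 difference of each strain from the mean of the other 4 strains (x axis) with its standard error, for the 9 member elements (y axis). Filled points have an adjusted p under 0.05. There are 10 filled points of 45, none of them in BALB/c, and Car3 and Fabp4 are higher in 129X1/SvJ and lower in C57BL/6J.

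Over the 45 comparisons of an element with a strain, 10 were called, 3 in C57BL/6J, 2 in 129X1/SvJ, 3 in FVB/NJ, 0 in BALB/c and 2 in DBA/2. Over all elements 3.22% were called in C57BL/6J, 5.7% in 129X1/SvJ, 2.55% in FVB/NJ, 2.03% in BALB/c and 1.96% in DBA/2. The 3 lower calls of C57BL/6J were Fabp4, Fabp5 and Car3. The calls of FVB/NJ were lower Car3, higher Apod and, in 1 of 3 elements only, lower Rbp4. These calls share arrays, since each strain also stands among the other 4 of the next comparison. In BALB/c, with 0 calls by limma, 4 of the 9 elements had an unadjusted p under 0.05, and Rbp4 element 9196 came nearest to a call, at 0.37 ± 0.10 (SE; adjusted p = 0.073).

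The 10 pairs of strains were tested on their own 8 arrays, and 11 of 90 comparisons of an element with a pair were called. Over all elements the called share was 1.3% for C57BL/6J with 129X1/SvJ, 3.13% for C57BL/6J with FVB/NJ, 2.79% for C57BL/6J with BALB/c and 2.99% for C57BL/6J with DBA/2. It was 0.78% for 129X1/SvJ with FVB/NJ, 0.887% for 129X1/SvJ with BALB/c and 1.21% for 129X1/SvJ with DBA/2. It was 2.41% for FVB/NJ with BALB/c, 3.73% for FVB/NJ with DBA/2 and 3.42% for BALB/c with DBA/2. The scattered arrays of 129X1/SvJ thus went with the fewest calls, and among the members they gave 1, Car3 against FVB/NJ. That call of 1.53 (adjusted p = 0.042) was lost without any 1 of pools 1, 2 and 3 of 129X1/SvJ or any 1 of the 4 FVB/NJ pools (adjusted p up to 0.16).

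Of the 11 calls, 4 held without any single pool. They were Car3 in FVB/NJ below BALB/c by -0.90 (adjusted p = 0.0045) and below DBA/2 by -1.04 (adjusted p = 0.0027), Rbp4 element 9196 in FVB/NJ below BALB/c by -0.75 (adjusted p = 0.0029), and Apod in FVB/NJ above DBA/2 by 0.99 (adjusted p = 0.0037). FVB/NJ is thus part of each of them. The other strain in each was BALB/c or DBA/2, from the other supplier, so strain and supplier cannot be told apart in these calls. Of the other calls, Fabp4 was lower in C57BL/6J than in BALB/c by -0.75 (adjusted p = 0.024), lost without pool 1, 3 or 4 of C57BL/6J or pool 1, 2 or 4 of BALB/c (adjusted p up to 0.087). Fabp5 was lower than in DBA/2 by -1.505 in C57BL/6J (adjusted p = 0.019), lost without pool 2 or 3 of C57BL/6J or pool 4 of DBA/2 (up to 0.065). It was lower by -1.27 in BALB/c (adjusted p = 0.025), lost without pool 2, 3 or 4 of BALB/c or pool 4 of DBA/2 (up to 0.068). Rbp4 element 9196 was higher in C57BL/6J than in FVB/NJ by 0.64 (adjusted p = 0.044), lost without pool 1, 3 or 4 of C57BL/6J or any FVB/NJ pool (up to 0.14). Apod was lower in C57BL/6J than in FVB/NJ by -0.65 (adjusted p = 0.037), lost without pool 1, 3 or 4 of C57BL/6J or pool 2, 3 or 4 of FVB/NJ (up to 0.12). It was higher in BALB/c than in DBA/2 by 0.60 (adjusted p = 0.026), lost without any BALB/c pool or pool 3 or 4 of DBA/2 (up to 0.065).

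Neither enzyme of lipid synthesis or activation passed the F test. Acly was near the reference in every strain, with means from -0.15 ± 0.44 (SD, n = 4) in 129X1/SvJ to -0.03 ± 0.20 in FVB/NJ, a span of 0.12 (adjusted p = 0.99). Its single pools ran from -0.54 to 0.29, so the pools of a strain differed by more than the strains did. Acsl3, on chromosome 1, ran from a mean of -0.46 ± 1.56 in 129X1/SvJ to 0.13 ± 0.35 in BALB/c (adjusted p = 0.82). In 129X1/SvJ the pools read 0.53, 0.18, 0.25 and -2.79, and DBA/2 read -0.49, -0.25, -0.22 and -0.64. The mean of 129X1/SvJ was thus set by pool 4. Without it the adjusted p was 0.0486, the distance from BALB/c to 129X1/SvJ turned to -0.19, and DBA/2 was the lowest strain. On the same array 119 elements lay more than 2 (log2) below the other pools of 129X1/SvJ, against 0 to 23 on the other arrays.

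**Figure D3:**
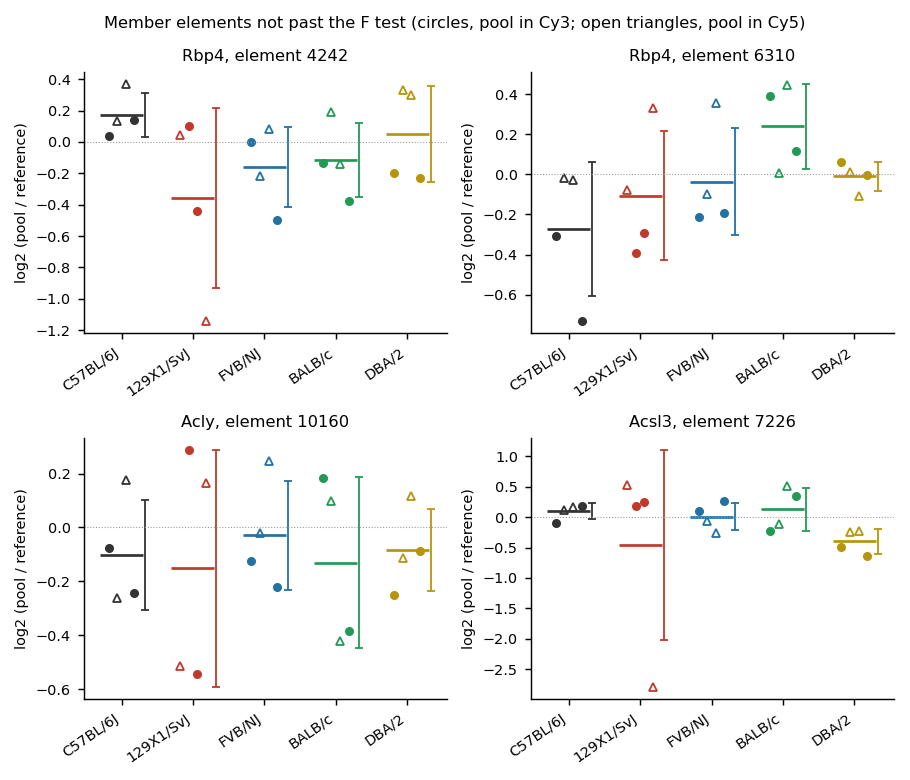
Log2 ratio of pool over reference (y axis) in each pool of the 5 strains (x axis) for the 4 member elements that did not pass the F test, 2 of Rbp4, Acly and Acsl3. Filled circles are pools in Cy3 and open triangles pools in Cy5, with the mean and SD of 4 pools. For Acsl3 a single pool of 129X1/SvJ lies at -2.79, and for Acly the strain means differ by 0.12.

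Fabp4 and Car3 are both markers of fat cells, and both were highest in 129X1/SvJ and called lower in C57BL/6J, but they differed in FVB/NJ, where Car3 was at -0.84 and Fabp4 at -0.10. Their strain means correlated at 0.84 over the 5 strains, given as a description. To ask whether the 2 genes moved together from pool to pool within a strain, the strain means were removed and the pools were permuted exactly within strains (7962624 orders, two-sided). Pearson's r was then 0.17 (exact p = 0.62, adjusted p = 0.78 over 91 pairs of genes) and Spearman's rho 0.25 (exact p = 0.40, adjusted p = 0.75), over 20 pools. Without the 2 pools farthest from the median of Fabp4, pool 4 of 129X1/SvJ and pool 1 of C57BL/6J, r was 0.60 (exact p = 0.017). Without pool 4 of 129X1/SvJ alone it was 0.67 (exact p = 0.0060), and without pool 2 of C57BL/6J alone -0.17 (exact p = 0.89). That pool had the highest Fabp4 value of all 20 and the lowest Car3 value of its strain, and pool 2 of C57BL/6J was high for both genes in its strain, so the size and sign of the relation rest on these 2 arrays. These smaller sets of pools were not adjusted for the number of relations examined.

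**Figure D4:**
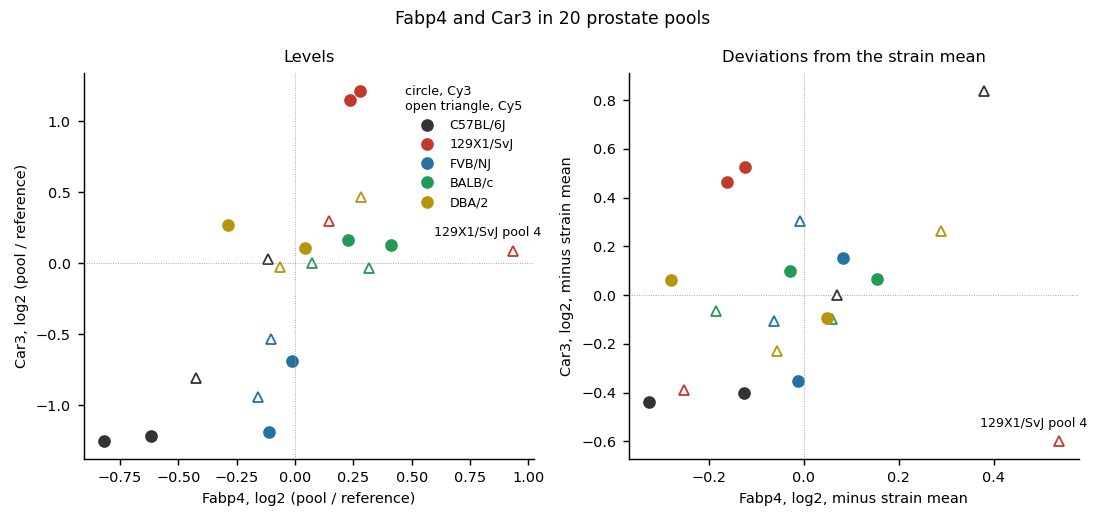
Car3 (y axis) against Fabp4 (x axis) in the 20 pools, as log2 ratio of pool over reference on the left and as deviation from the mean of the own strain on the right. Colours are strains, filled circles pools in Cy3 and open triangles pools in Cy5. Pool 4 of 129X1/SvJ lies apart in both panels, and r on the right is 0.17 with it and 0.67 without it.

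Fat-cell markers other than the members were followed through the same strains. Of 20 listed markers 9 had an element of their own, and the other 11, among them adiponectin and perilipin, were not analysed here. The F test called 3 of 9, Car3, Fabp4 and Lpl, against 11.3% of all elements, and 1 of the 7 that are not members. At an unadjusted p under 0.05 there were 5 of 9, with Thrsp and Scd1 added. Lpl, lipoprotein lipase, which frees fatty acids from blood triglycerides, was lowest in C57BL/6J (-0.28 ± 0.17, SD, n = 4) and highest in BALB/c (0.24 ± 0.19), with an adjusted p of 0.065. Cidec and Cidea, proteins of the lipid droplet, did not pass (adjusted p = 0.92 and 0.47), nor did the adipokine Retn (0.25), the lipogenic factor Thrsp (0.24), the receptor Acvr1c (0.94) or the desaturase Scd1 (0.14). The means of C57BL/6J were below 0 for 7 of the 9 markers and those of 129X1/SvJ above 0 for 7 of 9. Those of BALB/c were also above 0 for all but Cidea and Scd1, with Cidec at only 0.0003. Those of FVB/NJ were below 0 for all but Cidea, Lpl and Scd1, and DBA/2 had means on both sides. Such signs were not counted over all elements. Scd1 ran the other way in C57BL/6J, at 0.27 ± 0.27, and was lowest in BALB/c, at -0.42 ± 0.27. Over the 5 strain means, r with Fabp4 was 0.92 for Lpl, 0.90 for Thrsp, 0.84 for Car3, 0.82 for Cidec, 0.54 for Retn and 0.54 for Cidea. It was -0.39 for Scd1 and -0.64 for Acvr1c, and all of these means come from the same arrays. Averaged over the 9 markers, Fabp4 and Car3 included, the level was -0.20 in C57BL/6J (pools from -0.42 to -0.05) and 0.23 in 129X1/SvJ (pools from 0.0051 to 0.33), with no overlap. It was -0.13 in FVB/NJ (pools from -0.17 to -0.07), 0.03 in BALB/c (-0.01 to 0.08) and 0.04 in DBA/2 (-0.06 to 0.11). FVB/NJ thus did not overlap 129X1/SvJ, BALB/c or DBA/2, nor did BALB/c overlap C57BL/6J, so the separation was not particular to 1 pair of strains. How often averages of other genes separate strains in this way was not computed. These ranges are given as a description. Averaged over the 7 markers that are not members, it was -0.07 in C57BL/6J (pools from -0.25 to 0.05) and 0.15 in 129X1/SvJ (pools from -0.06 to 0.25), and these ranges overlap.

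**Figure D5:**
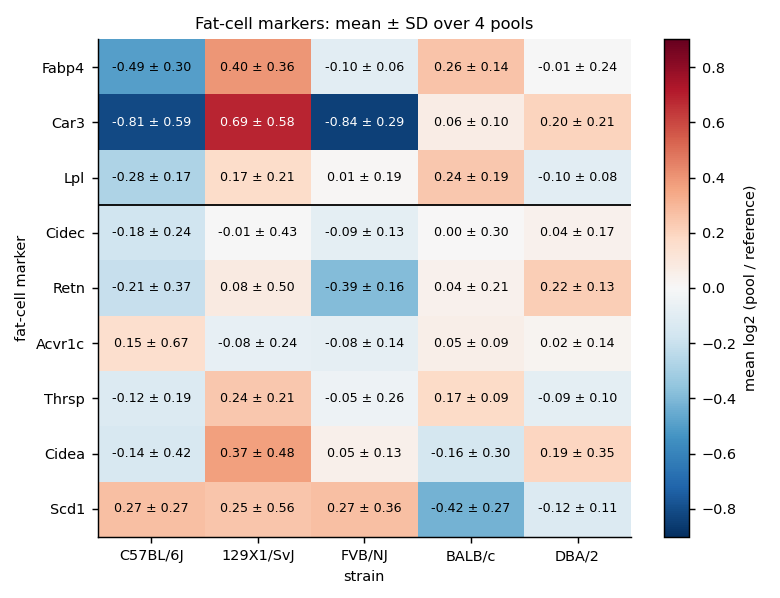
Mean log2 ratio of pool over reference (colour and first number) and its SD over 4 pools (second number) for 9 fat-cell markers (rows) in the 5 strains (columns). The 3 markers above the line passed the F test. Fabp4, Car3 and Lpl are below 0 in C57BL/6J, and in FVB/NJ Car3 is at -0.84 while Lpl is at 0.01.

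Within strains, 36 pairs of these 9 markers could be formed. After removal of the strain means r was above 0 in 19 of the 36, with a median of 0.05, and 0 pairs passed an adjusted p under 0.05 by the exact permutation test, while 3 had an unadjusted p under 0.05. Of the 8 pairs that include Fabp4, 5 had r above 0, and so did 5 of the 8 that include Car3. Of the 3 pairs with an unadjusted p under 0.05, Cidec with Lpl was negative at r = -0.72 (exact p = 0.0041, adjusted p = 0.27). Fabp4 with Scd1 (r = 0.60, exact p = 0.044, adjusted p = 0.47) and Thrsp with Scd1 (r = 0.64, exact p = 0.023, adjusted p = 0.42) were positive, but without the 2 pools farthest from the median of the first gene they were 0.085 and 0.29. A shared rise of the fat-cell markers from pool to pool was thus not detectable in these 20 pools. The 36 pairs were not summarized again without pool 4 of 129X1/SvJ, on which r of Fabp4 with Car3 depended. In pooled whole glands, fewer cells of a type and less RNA per cell cannot be told apart.

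Markers of other cells were set beside these strain differences. Each gene is counted here by 1 element, and of all named genes counted in this way 12.5% passed the F test. Of 10 skeletal muscle genes, 3 passed the F test. Tnnc2, a troponin of fast muscle, and Eno3, the muscle enolase, were lowest in C57BL/6J (-0.44 ± 0.15 and -0.26 ± 0.17, SD, n = 4). Both were highest in 129X1/SvJ (0.37 and 0.38), so they shared the lowest and highest strain of Fabp4. Acta1, skeletal actin, was highest in DBA/2 (0.62) and at -0.33 in 129X1/SvJ. Among the muscle genes not called, Ckm was highest in 129X1/SvJ (0.14), but Tnnt3 (-0.48), Mylpf (-0.41) and Atp2a1 (-0.15) were lowest there. The mean of the 10 genes ran from -0.43 to 0.19 in the C57BL/6J pools and from -0.32 to 0.24 in those of 129X1/SvJ. Of 6 endothelium genes 0 passed limma's F test (2, Kdr and Eng, at an unadjusted p under 0.05), with pools from -0.18 to -0.08 in C57BL/6J and from -0.14 to 0.09 in 129X1/SvJ. Of 4 macrophage and leukocyte genes, Lyz2 and Cd52 passed, and Lyz2, the macrophage lysozyme, was highest in BALB/c (0.59). Cd52, a leukocyte surface antigen, was lowest in C57BL/6J (-0.51), at -0.24 in BALB/c and highest in DBA/2 (0.19). Of 8 luminal epithelium genes Epcam passed, lowest in C57BL/6J (-0.46) and highest in 129X1/SvJ (0.41). Of 13 fibroblast and matrix genes Mgp and Col1a1 passed. Unlike Fabp4, Mgp was highest in C57BL/6J (0.27) and Col1a1 lowest in 129X1/SvJ (-0.27). Of the genes of these lists not counted as passed, some had other elements that did, 2 of 4 in all for Cdh1, 1 of 2 for Cd24a, 1 of 12 for Pbsn, 1 of 3 for Col3a1 and 1 of 2 for Fstl1. Of 7 smooth muscle genes and of 1 basal epithelium gene 0 passed, also at an unadjusted p under 0.05. The part of these cells in the levels of Fabp4 and Car3 was not tested.

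Among the carriers of fatty acids, retinoids and sterols, 4 of 9 measured genes passed the F test, and 2 of the 6 that are not members. The share over all named genes, counted by 1 element each, was 12.5%. Beside Fabp4 and Fabp5 these were Rbp2, a retinol carrier of the cell, and Crabp1, which binds retinoic acid. Rbp2 had the same highest and lowest strain as Fabp5, with 0.55 in DBA/2 and -0.59 in C57BL/6J (adjusted p = 0.00088), and its second element passed too. Crabp1 was high in FVB/NJ (0.38) and C57BL/6J (0.36) and low in BALB/c (-0.53) and 129X1/SvJ (-0.45), with an adjusted p of 0.022. Fabp7, Scp2, Acbd3 and Acbd5 did not pass, and Rbp4 is counted here by element 4242, which did not pass.

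The list of apolipoproteins and lipocalins also held lipid-related genes of other families, among them Azgp1, Lrp1 and Vldlr. Of its 7 measured genes 4 passed, Apod, Clu, Azgp1 and Apoc1, against 12.5% of named genes. Without the member Apod it was 3 of 6. Clu, apolipoprotein J, a secreted chaperone, had the same highest and lowest strain as Apod and a wider span of 2.71, from -1.23 in DBA/2 to 1.48 in FVB/NJ (adjusted p = 0.000805). Azgp1, a lipid-mobilizing glycoprotein, was highest in C57BL/6J (0.87) and lowest in BALB/c (-0.96). Apoc1 was highest in DBA/2 (0.45), where Apod was lowest. These 4 genes were thus not all highest in the same strain.

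The enzymes around Acly and Acsl3 gave fewer calls. Of 7 genes of fatty acid synthesis, Elovl7, an elongase, and Fads3, a desaturase-like protein, passed, both highest in 129X1/SvJ (0.55 and 0.25). Elovl7 passed in 1 of its 2 elements. Of 3 genes of acyl-CoA synthesis and fatty acid transport and of 5 of sterol synthesis 0 passed limma's F test (0 and 1, Ebp, at an unadjusted p under 0.05). Lpl was the only 1 of 6 genes of triglyceride storage and release, and Acaa2 the only 1 of 11 of fatty acid oxidation. Among carbonic anhydrases 2 of 3 passed, and 1 of the 2 that are not members. Car5b, a mitochondrial form, was highest in 129X1/SvJ (0.53), as Car3 was, and lowest in DBA/2 (-0.63), where Car3 was at 0.20.

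The genes most like each member over the 20 pools were sought among 5661 others with complete values, by Pearson's r of the log2 ratios. For Fabp4 they were Apip (r = 0.84) and Slc35c1 (0.82), for Fabp5 Mfge8 (0.83) and Wfdc2 (0.81), and for Apod Erp44 (0.81) and Gmfg (0.80). For Car3 they were Selenon (0.76) and Aqp11 (0.76). None of these is on the list of fat-cell markers, but only 9 of those were measured, so little can be read from this. With strain means removed, Apod and Erp44 kept an r of 0.07 and Car3 and Selenon of 0.01, so these likenesses lay between strains, while Fabp5 and Mfge8 kept 0.73. Acsl3 was most like Tm9sf2 (0.96) and Snx10 (0.95), which read -2.69 and -2.50 on pool 4 of 129X1/SvJ, and without that array r fell to 0.81 and 0.74. For Acly they were Sorbs2 (0.85) and Iglv1 (0.84), and for Rbp4 element 4242 Pcgf3 (0.85) and Brd2 (0.85), the latter at -2.98 on the same array. These values describe the samples and carry no test.

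On the arrays with the sample in Cy3 alone the same 5 member elements passed the F test, and on those with the sample in Cy5 alone 1 passed, Fabp5. In Cy5 the adjusted p was 0.48 for Fabp4, 0.29 for Rbp4 element 9196, 0.31 for Apod and 0.36 for Car3. The spans kept their direction, at 0.81 in Cy5 and 0.98 in Cy3 for Fabp4, at 0.73 and 0.77 for Rbp4 element 9196, at 0.92 and 1.07 for Apod, and at 0.93 and 2.12 for Car3. Over all elements the F test called 817 in Cy3 and 309 in Cy5.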

How the data were processed

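Prostate RNA of 20 pools was measured on 2-colour cDNA arrays. The authors corrected the median foreground of every spot for its median background, and the deposited log2 ratio of pool over reference was normalized by them with print-tip loess. Direction was checked on the values: a reference of equal strain shares caps a strain mean at 2.32, and of 6290 strain means 0 exceeded this while 45 lay below its negative. Spot intensities, depth over background and the removal of dim spots were not used here. Precision is limited by the number of arrays. Gene symbols came from the platform annotation, with 8050 elements of 1 symbol, 672 of several and 2830 not listed. An element was tested if it lacked no more than 3 values and had at least 2 in every strain (11159, with 393 left out). The strain comparisons were made in R 4.3.3 with limma 3.58.1, by a moderated F test over the 5 strains (adjusted p at most 0.1), by each strain against the mean of the other 4 and by 10 pairs on their own 8 arrays (adjusted p under 0.05), with Benjamini-Hochberg adjustment over all tested elements. SAM, named in the methods, was not run. Correlations used exact permutation within strains (Python 3.11.15, scipy 1.17.1). Pools are separate groups of mice, so p-values measure the spread between pools. In the F test and the tests against the other 4, all strains share 1 spread, although the arrays of 129X1/SvJ were more scattered. All members and all their elements were named, with the genes of each list past the F test (at most 6), and for each member the 2 most alike genes. Kdr, Eng, Ebp, Pbsn, Tgm4, Cdh1, Cd24a, Col3a1, Fstl1, Ckm, Tnnt3, Mylpf, Atp2a1, Svs1, Svs3b and Svs6 were named after their values were seen. A gene with several elements was represented by the one with the fewest missing values, then the lowest number. Members and lists were chosen with earlier results of these data known. The tests were tested on simulated data. Alternatives were other filters, scalings, dye, block, spread and single pools left out.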

Additional observations from a re-analysis of the deposited data

Results flagged for a closer look

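In each strain the 4 pools of each member element were examined for a pool whose gap to the nearest other exceeded Dixon's critical value for 4 samples, 45 groups in all, and chance alone flags about 1 in 20 groups. Both pools found were pool 4 of 129X1/SvJ, in Cy5. Fabp4 read 0.94 there, against 0.15 to 0.28 in the other pools of the strain. Acsl3 read -2.79 there, against 0.18 to 0.53. On this array 4.53% of all elements stood apart in the same way.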

How the results depend on the processing

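The count of 5 member elements past the F test stayed at 5 under all alternatives but one, the arrays with the sample in Cy5 alone, where it was 1, and ran from 5 to 6 with single pools left out. The 10 calls of a strain against the other 4 became 5 without moderation, 5 in Cy3 alone and 0 in Cy5 alone (limma, 10 arrays), and ran from 6 (without pool 4 of FVB/NJ) to 10 with single pools left out. The 11 calls over pairs became 1 without moderation and 2 in Cy5 alone, and ran from 7 (without pool 3 of C57BL/6J) to 12 with single pools left out. The other alternatives gave 9 to 11 and 9 to 15 calls. For Fabp4 with Car3, r was 0.65 with strain means kept, which is given without a p-value because it includes the differences between strains. With strain means removed, r was 0.60 without the 2 farthest pools (exact p = 0.017) and 0.71 without the 129X1/SvJ pools (exact p = 0.019). With single pools left out it ran from -0.17 to 0.67, against 0.17 with all 20 pools. The difference of Acsl3 between BALB/c and 129X1/SvJ ran from -0.19 (reversed, without pool 4 of 129X1/SvJ) to 0.91 with single pools left out. Over all elements the F test called 1258, and 1927 with array weights, 817 in Cy3 alone and 309 in Cy5 alone. Pool numbers are shared between strains, but the labels do not say that a number marks a day or batch. Deviations of same-numbered pools correlated from -0.33 to 0.42, with 23 of 40 pairs of arrays over 0.1. Within one dye 22 of 24 such pairs were over 0.1 (median 0.27), against 39 of 56 with other numbers (median 0.18). With opposite dyes 1 of 16 was over 0.1 (median -0.11), against 0 of 64 with other numbers (median -0.23). At the median, arrays of the same number were thus more alike than arrays of other numbers, with the same dye and with opposite dyes. Of 20 arrays, 10 were most like an array of their own number. As the labels do not say what a number marks, it was not used to pair the samples in the main tests. With the pool number as a replicate block the calls were 5, 10 and 13, and r of Fabp4 with Car3 was 0.26. The pair call of Car3 in 129X1/SvJ over FVB/NJ (adjusted p = 0.042 without the block) had an adjusted p of 0.082 with it. Of 1015 other recomputed values, 872 kept their side of the threshold, 140 fell below it, 2 rose past it and 1 reversed. The small number of arrays and the scatter of 129X1/SvJ limit these comparisons, and signal over background was not used here.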
